A study of Mus musculus with 2 samples.

Results

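The IL-6 family was described here through 10 genes measured in cultured mouse adipose stromal cells. They comprise the ligands Il6, Il11, Lif and Ctf1, the ligand-binding receptors Il6ra, Il11ra1, Lifr and Osmr, the shared signal-transducing receptor Il6st (gp130) and the feedback inhibitor Socs3. The genes were chosen by name with earlier results of these data known, so any comparison of them with all genes is a description only. All 10 were present among the 27995 genes listed in both matrices. Unique molecular identifiers (UMIs, which count captured transcript molecules) were summed over kept cells and scaled to UPM, the UMIs of a gene per 1000000 UMIs of the same cells.

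Ligands of this family bring a ligand-specific receptor together with Il6st on the cell surface, which activates JAK kinases and the transcription factor STAT3. STAT3 induces Socs3, whose product blocks further signalling from the receptor. IL-6 and IL-11 are secreted by fibroblasts and preadipocytes and act on adipogenesis and inflammation in adipose tissue, and LIF acts on the differentiation of stem and progenitor cells.

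Single-cell transcriptomes were obtained with the BD Rhapsody system from 2 libraries, 1 of inguinal white (iWAT) and 1 of interscapular brown (iBAT) adipose tissue of wild-type C57BL/6N mice. The labels give an age of 8 to 12 weeks and pooled tissue, and the stromal vascular fraction was grown in culture before treatment. Each library pooled 4 tagged cultures, labelled untreated, FGF1, FGF2 and FGF8, with FGF given at 5.5 nM for 48 h. The study's methods for this experiment name vehicle, FGF1 and FGF2 without FGF8, so the makeup of the pool is uncertain. The tag of each cell was not used here, so every value is a sum over the pooled cultures and no treatment was compared. With 1 library per depot there was no replicate check and no test: intervals are exact 95% intervals that cover counting error only, and depot, culture and library cannot be told apart.

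The iWAT library held 29744 kept cells with a median of 16204 UMIs, and the iBAT library 28215 kept cells with a median of 27235 UMIs. The libraries shared 8 cell index numbers. They also differed in sex-linked transcripts, with Xist at 344.6 and 0.0505 UPM and the Y-linked Ddx3y at 1.20 and 81.9 in iWAT and iBAT. Depot and sex therefore cannot be told apart. Cells were called stromal if they had a UMI of Pdgfra, the receptor that marks adipose progenitors, and at least 3 stromal markers, and met no other class. They numbered 16827 in iWAT (56.6% of kept cells) and 25256 in iBAT (89.5%). Most remaining iWAT cells were ungated, and 93.4% of those 8631 cells met the stromal markers without a Pdgfra UMI.

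Stretches of the promoters of Il6, Il11, Lif and Socs3 are shown because these 4 genes carry differences described below and were the members with a match to a searched motif, among 13 windows of the 10 members. They were taken from RefSeq on GRCm38.p6, from the 250 bases before each annotated start, and capitals mark the matches. The motifs searched on both strands were AP-1 (TGANTCA), NF-kB (a pattern as long as the last of the 3 matches of Il6 and with the same letters, but with any base allowed at the fourth and the fifth), C/EBP (TTGNGCAA) and STAT (TTCNNNGAA). The Il6 stretch (chr5:30012864-30013094, plus strand) held an AP-1, a C/EBP and an NF-kB match, in that order, at 242, 120 and 34 bases before the start. The Il11 stretch (chr7:4778218-4778254, minus strand) and the Lif stretch (chr11:4257325-4257361, plus strand) each held an AP-1 match, at 91 and 221 bases. The Socs3 stretch (chr11:117969497-117969535, minus strand) held a STAT match at 145 bases.
Il6: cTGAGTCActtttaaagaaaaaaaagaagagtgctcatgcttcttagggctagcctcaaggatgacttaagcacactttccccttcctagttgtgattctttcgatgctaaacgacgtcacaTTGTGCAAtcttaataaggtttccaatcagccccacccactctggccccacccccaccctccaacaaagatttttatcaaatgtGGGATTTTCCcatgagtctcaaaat
Il11: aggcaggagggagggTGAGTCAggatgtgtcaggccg
Lif: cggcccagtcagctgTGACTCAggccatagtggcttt
Socs3: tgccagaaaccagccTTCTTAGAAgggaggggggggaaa
Of 32851 RefSeq windows of the same kind, 6.75% held the AP-1 letters, 1.41% the NF-kB letters, 2.61% the C/EBP letters and 7.02% the STAT letters. A match describes these letters only and does not show binding.

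Members of the family differed between the depots in both directions. Among the members with at least 10 UPM in 1 depot or more, Il6 and Lif were higher in iWAT stromal cells by 2-fold or more, and Il6st and Socs3 were higher in iBAT. Thus 2 of the 8 members that passed this filter were higher in iBAT, against 3.69% of the 8959 genes that passed it, and 2 were higher in iWAT, against 4.32%. The remaining 4 differed by less than 2-fold, and Ctf1 and Lifr did not pass the filter. The median log2 ratio of iBAT over iWAT was 0.05 over all genes that passed.

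**Figure D1:**
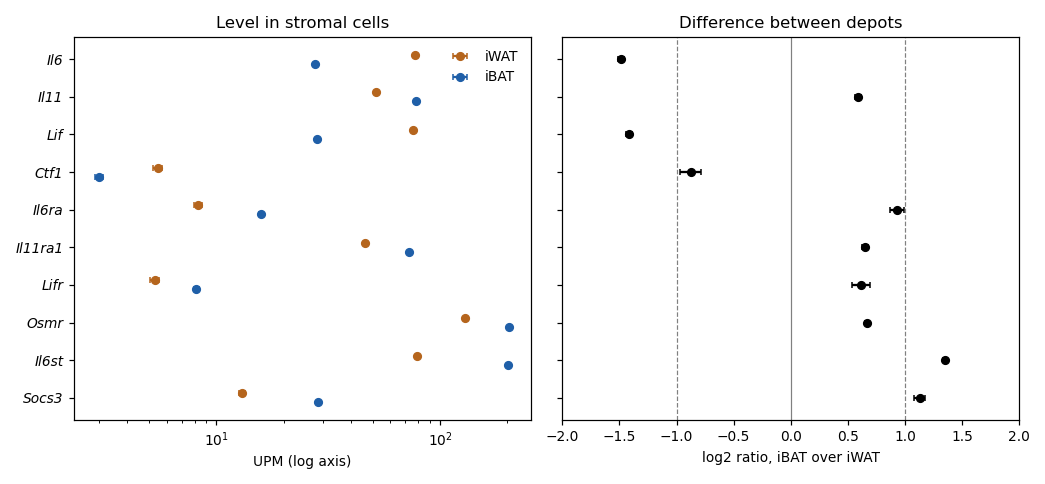
UPM (log axis) of each member in stromal cells of iWAT and iBAT, and the log2 ratio of iBAT over iWAT, with exact 95% counting intervals and dashed lines at a 2-fold difference. Il6 and Lif lie left of the lower line, and Il6st and Socs3 lie right of the upper line.

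Among the ligands, Il6 was measured at 77.5 UPM in iWAT (95% interval 76.5 to 78.4) and 27.7 in iBAT (27.3 to 28.1). This level was 2.80-fold higher in iWAT (2.74 to 2.85). Lif was measured at 75.5 in iWAT and 28.3 in iBAT, and both ligands thus had intervals far apart between the depots. Il11 went the other way, at 51.8 in iWAT and 77.8 in iBAT, a log2 ratio of 0.59. Ctf1, which encodes cardiotrophin-1, was measured at 5.47 and 2.98, and Ctf2 overlaps it on the other strand, so their reads may not be separable. On GRCm39, Il6 lies at chr5:30218112-30224979, Il11 at chr7:4775372-4785858, Lif at chr11:4207557-4222514 and Ctf1 at chr7:127311859-127317916.

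The 4 ligand-binding receptors had higher levels in iBAT, each by less than 2-fold. Osmr, the oncostatin M receptor, was at 129 UPM in iWAT and 204 in iBAT, and Il11ra1, which binds IL-11, was at 46.3 and 72.7. Il6ra, which binds IL-6, was at 8.27 and 15.8, so it passed the filter through iBAT alone. Lifr was at 5.30 and 8.11, below the filter. Cntfr, the receptor of ciliary neurotrophic factor and not among the 10 members, was also below the filter and had the opposite order, at 8.72 and 4.71. Counts of Il11ra1 are uncertain, since 63.0% of the 31-base words at its transcript end also occur in Il11ra2 or Il11ra3. Osmr and Lifr are neighbours on chromosome 15 (GRCm39), 215.6 kb apart.

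The shared receptor Il6st (chr13:112600604-112646620, GRCm39) was at 79.0 UPM in iWAT and 201 in iBAT, which is 2.55-fold higher. Socs3 (chr11:117856905-117860898) was at 13.03 and 28.5, a ratio of 2.19 (2.12 to 2.27). The log2 ratio of Socs3 went from 1.13 to 0.94, below 2-fold, when at least 3 Pdgfra UMIs were required of a cell.

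Other genes of the pathway were compared in the same way. These lists, and those of immediate-early and NF-kB target genes below, were chosen with earlier results of these data known. Their counts beside the shares over all genes are descriptions only. Among the other ligands, Clcf1 (cardiotrophin-like cytokine) was 2.05-fold higher in iBAT. Osm, the ligand of Osmr, had 9 UMIs in iWAT stromal cells. The kinase genes Jak1 and Jak2 were at log2 ratios of 0.20 and 0.50, and Stat3 was at 0.35. None of the 4 feedback genes that passed, among them Socs2, differed by 2-fold, nor did the sheddases Adam10 and Adam17. Of 9 STAT3 target genes that passed, Cebpd was 2.77-fold higher in iBAT and Pim1 2.85-fold higher in iWAT, and the other 7 differed by less than 2-fold. Among the 8959 genes that passed, 3.69% were 2-fold or more higher in iBAT and 4.32% in iWAT.

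Immediate-early genes respond within minutes to growth factors and to handling, and most of them were higher in iWAT, as Il6 and Lif were. Of 9 that passed, 5 were 2-fold or more higher in iWAT (Fos, Fosb, Jun, Egr1 and Nr4a1), against 4.32% of all genes that passed. None was 2-fold higher in iBAT, against 3.69%, and Zfp36 was 1.36-fold higher there. The median log2 ratio of these genes was -1.08. NF-kB target genes were split. Of 9 that passed, 3 were 2-fold or more higher in iWAT (Cxcl1, Tnfaip3 and Ptgs2) and 2 in iBAT (Cxcl5 and Ccl2), against the same shares of all genes. The part of these genes in the depot difference of Il6 and Lif was not tested. Within iWAT, cells with an Il6 UMI had a summed immediate-early level 1.10 times that of cells without, at 2423 against 2211 UPM, and the ratio was 1.14 in iBAT. For cells with Lif the ratio was 0.951 in iWAT, with 3 of 10 genes higher, and 0.994 in iBAT, with 5 of 10 higher. No share over all genes is given beside these counts, which are descriptions only.

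The members were also compared among the cell classes of each library, gated on at least 3 markers. Lif was 2-fold or more above the stromal level in iBAT Schwann-like and iWAT epithelial-like cells, but the epithelial-like call was lost with markers at 1 UMI. Ctf1 was also higher in iWAT epithelial-like cells and Il6ra in immune-like cells of both depots. Ctf1 and, in iWAT, Il6ra passed the filter only through those classes, so they were not read as results about the members. Il6 and Il11 were below the stromal level in the epithelial-like, Schwann-like, immune-like, endothelial-like and skeletal muscle-like classes of at least 50 cells, although the iBAT endothelial-like Il6 ratio of 0.315 became 1.03 with markers at 1 UMI. In the 61 iBAT adipogenic-like cells Il6 was 1.34 times the stromal level, which became 0.188 when cells were thinned before gating. No epithelial-like cell was found in iBAT and no adipogenic-like cell in iWAT.

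**Figure D2:**
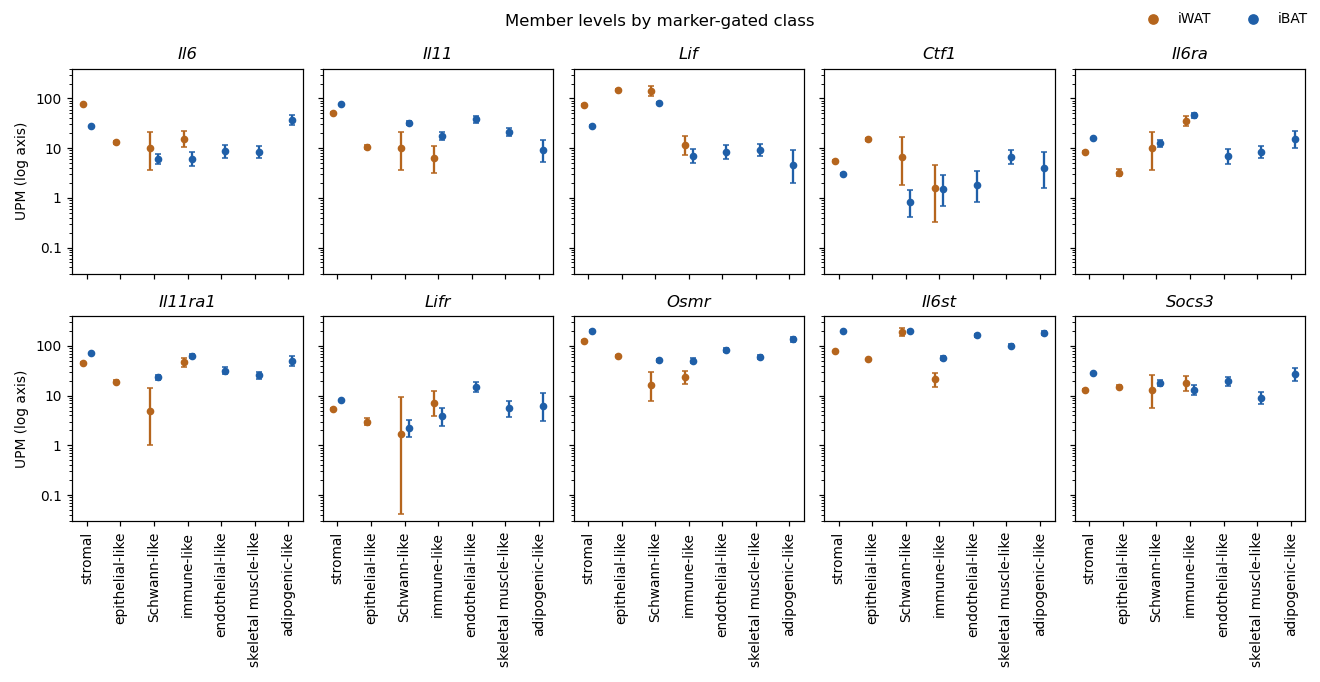
UPM (log axis) of each member in every class of at least 50 cells, with exact 95% counting intervals, in iWAT and iBAT. Lif is higher in epithelial-like and Schwann-like cells than in stromal cells, and Il6ra is highest in immune-like cells.

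In the 4014 iWAT epithelial-like cells, Lif was at 151.5 UPM, 2.00 times the stromal level (1.95 to 2.06). Thinning to 10000 UMIs left 2575 of these cells, and 55.5% of them had a Lif UMI against 36.9% of stromal cells. Ctf1 was at 15.2, which is 2.79 times the stromal level, and it passed the filter through the epithelial-like cells alone. These 2 of the 8 members that passed the filter were higher by 2-fold, against 10.1% of all genes that passed. Since Ctf1 counts only through the class where it is high, the 2 were not read as a result about the members. Lower by 2-fold were 4 members (Il6, Il11, Il11ra1 and Osmr), against 11.1%. Il6 was at 0.169 and Il11 at 0.204 of the stromal level, which became 0.0878 and 0.122 without the highest doublet scores and 0.249 and 0.311 with markers at 1 UMI. With markers at 1 UMI, Lif was at 1.90 and Osmr at 0.533, so both calls were lost. Col1a1, a collagen gene of stromal cells, was at 0.164 of its stromal level in the same cells, and the part of stromal RNA in these values was not tested. Among the epithelial-like cells, 40.8% met the stromal markers.

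In Schwann-like cells, Lif was at 142.3 UPM in iWAT (60 cells) and 81.2 in iBAT (724 cells), which is 1.88 and 2.87 times the stromal level. In the same cells Col1a1 was at 0.583 of its stromal level in iWAT and 1.25 times in iBAT, and 88.3% and 89.8% of the cells met the stromal markers. The part of stromal RNA in these values was not tested. In iBAT Lif was the only one of the 8 members that passed to be 2-fold higher, against 7.83% of all genes. Il6st was 2.43 times the stromal level in iWAT, the only one of 7 there, against 13.7%, and 1.01 times in iBAT. When cells were thinned before gating, the iWAT ratios were 1.82 for Il6st, which lost the call, and 1.46 for Lif. At 10000 UMIs, 32% of 25 iWAT Schwann-like cells had a Lif UMI, against 36.9% of stromal cells, and in iBAT 38.1% against 14.9%. Il6, Il11, Il11ra1 and Osmr were 2-fold or more lower in Schwann-like cells of both libraries. These were 4 of 7 members that passed in iWAT, against 13% of genes, and 4 of 8 in iBAT, against 8.7%. In iWAT they had only 6, 6, 3 and 10 UMIs in the 60 cells. The difference between the depots was not tested.

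Il6ra was highest in immune-like cells, at 35.2 UPM in iWAT (155 cells) and 45.5 in iBAT (240 cells). These levels were 4.25 and 2.89 times those of stromal cells, and Il6ra was the only one of 8 members that passed to be 2-fold higher, against 14.8% and 11.3% of all genes, shares near that of the members. In iWAT it passed the filter through the immune-like cells alone. Lower by 2-fold were 5 of 8 members in iWAT, against 16.9%, and 6 of 8 in iBAT, against 15.7%. Among them Il6, Il11, Lif and Osmr were between 0.120 and 0.249 of the stromal level. With markers at 1 UMI, Il11 was at 0.651 in iWAT and 0.532 in iBAT and Socs3 at 0.533 in iBAT, so these calls were lost, and without the highest doublet scores Il11 was at 0.0358 and 0.0777 and Lif in iBAT at 0.0344. Col1a1 was at 0.160 in iWAT and 0.206 in iBAT. Il6st, also lower in both, was at 0.269 and 0.283.

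The remaining classes reached 50 cells in iBAT alone. In iBAT, Lifr in 209 endothelial-like cells was at 15.3, which is 1.88 times the stromal level. None of 9 members that passed was 2-fold higher there, against 9.37% of all genes, and 6 were lower, against 10.3%. In 271 skeletal muscle-like cells Ctf1 was at 6.70 UPM, which is 2.25 times the stromal level but below the filter. None of 8 members that passed was higher there, against 10.8%, and 6 were lower, against 15.4%. In the adipogenic-like cells none of 8 was higher, against 11.1%, and Il11 and Lif were lower, against 14%.

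Il6, Il11 and Lif were unevenly spread among stromal cells, whereas the counts of Il11ra1 and Osmr were closer to an even spread. Cells were thinned to 10000 UMIs each, which left 15164 iWAT and 25256 iBAT cells and left out 1663 shallower iWAT cells. If every cell held the same mean, the Poisson distribution gives the share of cells with a UMI. The cells of each library came from pooled cultures. The part of the cultures in the spread, co-detection and grouping values below was not tested.

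**Figure D3:**
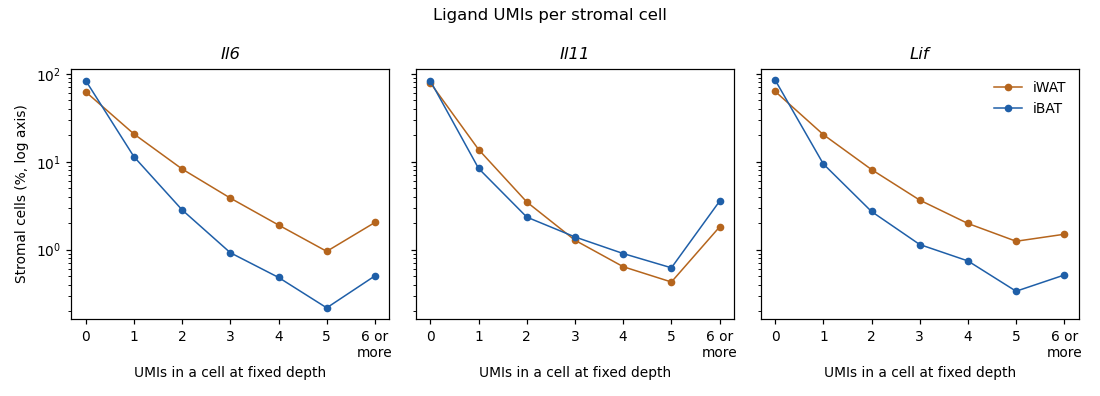
Share of stromal cells (percent, log axis) by the number of Il6, Il11 and Lif UMIs in a cell thinned to 10000 UMIs, with 6 or more UMIs grouped in the last point. The Il11 curve of iBAT starts near that of iWAT and ends above it.

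Il11 had a UMI in 21.4% of iWAT cells, where the Poisson share was 39.6%, and in 17.2% of iBAT cells, where it was 52.0%. In iBAT, the 10% of cells with most Il11 UMIs held 90.2% of them, and 1 cell held 94. The variance of Il11 was 7.33 times its mean in iWAT and 14.3 times in iBAT. The higher Il11 level of iBAT thus lay in a smaller share of cells. Cells with 5 or more Il11 UMIs made up 4.18% of iBAT cells (1055 cells) and 2.24% of iWAT cells (340 cells).

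Il6 had a UMI in 37.7% of iWAT and 16.4% of iBAT cells, and Lif in 36.9% and 14.9%. Their variances were between 2.63 and 3.15 times the mean. For Ctf1 this ratio was 1.03 in iWAT and 1.05 in iBAT, but at means as low as that of Ctf1 in iBAT, 0.0305 UMIs per cell, it is drawn towards 1 by the low count, as it also is for Lifr and Il6ra. For Il6ra, Il11ra1 and Lifr, this ratio was between 1.05 and 1.23, and for Osmr 1.32 and 1.42. For Il6st this ratio was 1.65 in iWAT and 2.83 in iBAT, at means of 0.813 and 2.15 UMIs per cell. The part of the mean in this difference was not tested.

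Among Il6, Il11 and Lif, the odds ratio of co-detection was above 1 in 5 of the 6 pairings over both libraries. In iWAT the odds ratio was 1.23 for Il6 with Il11 (1.14 to 1.33), 1.38 for Il6 with Lif and 1.26 for Il11 with Lif. In iBAT, Il11 with Lif reached 2.03 and Il6 with Lif 1.24, while Il6 with Il11 was 0.918 (0.839 to 1.00). With at least 2 UMIs of each, Il6 with Il11 in iBAT was 1.02 and Il11 with Lif 3.05. Ctf1 had an odds ratio of 1.21 with Il11 in iWAT (1.03 to 1.43), and its other 5 ligand pairings had intervals that included 1. All 3 ligands were found in 598 iWAT cells (3.94%, against 2.97% from the product of the single shares) and in 188 iBAT cells (0.744%, against 0.419%). Before thinning, cells with all 3 had a median of 20367 UMIs in iWAT, against 18546 in cells with none, and the part of depth was not tested. In the middle 50% of cells by depth, the odds ratio of Il11 with Lif was 1.20 in iWAT and 1.93 in iBAT.

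**Figure D4:**
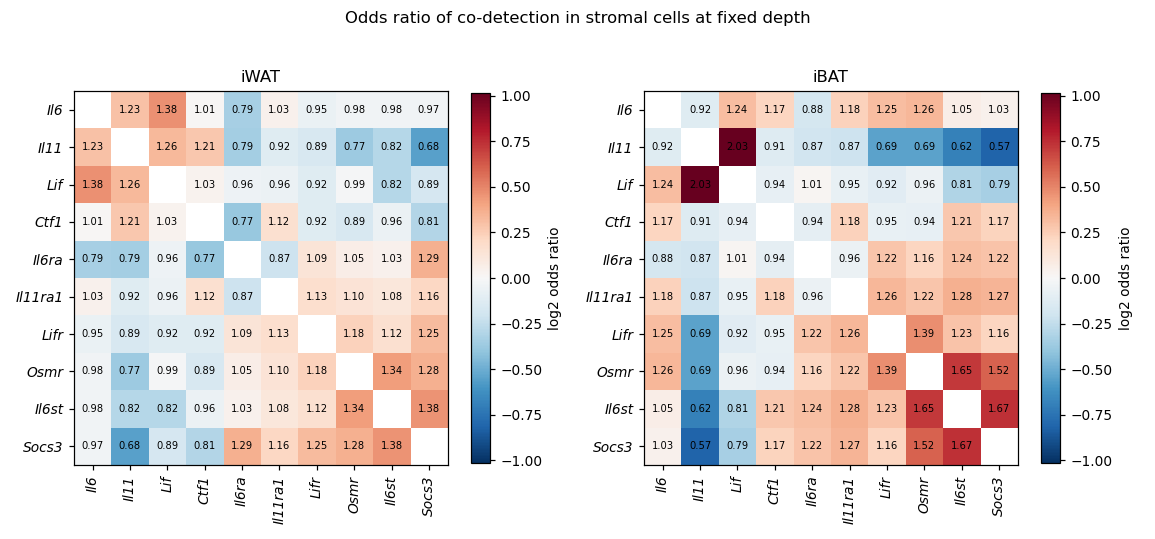
Odds ratio of finding a UMI of both members in a stromal cell thinned to 10000 UMIs, for the 45 pairs in each library, with colour on a log2 scale. Il11 with Lif is the highest ligand pair in iBAT, at 2.03, and Il11 with Socs3 is below 1 in both libraries.

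Socs3 was found in a larger share of cells with each receptor among the members and in a smaller share of cells with Il11 or Lif. In iWAT and iBAT, the odds ratio of Socs3 was 1.28 and 1.52 with Osmr and 1.29 and 1.22 with Il6ra. With Il11ra1 it was 1.16 and 1.27, and with Lifr 1.25 and 1.16. Il6st with Socs3 had an odds ratio of 1.38 in iWAT and 1.67 in iBAT, and Osmr with Il6st 1.34 and 1.65. Il11 with Socs3 had 0.682 and 0.569, and Il11 with Il6st 0.818 and 0.621. Lif with Socs3 had 0.887 and 0.791, and Lif with Il6st 0.818 and 0.807. Socs3 had a UMI in 12.7% of iWAT cells without any of Il6, Il11 and Lif and in 9.70% of those with all 3. In iBAT these shares were 23.9% and 12.8%. For Il6 alone the shares were close, with a Socs3 UMI in 11.3% of iWAT cells with and 11.6% of those without Il6, and in 22.7% and 22.1% in iBAT.

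Stromal cells were then grouped by the number of Il11 UMIs. In the groups with an Il11 UMI, Lif was higher and Il6st, Osmr and Socs3 were lower than in cells with none. In iBAT, from cells with no Il11 UMI to cells with 5 or more, Lif went from 23.1 to 67.6 UPM, Il6st from 229 to 114 and Socs3 from 31.9 to 11.4. In iWAT, Lif went from 70.0 to 113, Il6st from 85.1 to 57.4 and Socs3 from 14.4 to 4.41. Osmr went from 215 to 162 UPM in iBAT and from 134 to 105 in iWAT. Il11ra1 went from 75.8 to 65.9 in iBAT and from 47.4 to 48.5 in iWAT. Il6 stayed between 26.0 and 28.9 in the iBAT groups and went from 74.5 to 121.5 in iWAT. Grouped by Il6 instead, the share of cells with a Lif UMI went from 34.0% to 47.1% in iWAT. In iBAT this share went from 14.4% to 22.5%. The level of Socs3 was 13.6 UPM in iWAT cells with no Il6 UMI and 13.7 in those with 5 or more. In iBAT the level of Socs3 was 29.4 with no Il6 UMI, 29.5 with 2 to 4, and 42.3 (33.4 to 52.9) with 5 or more. That last iBAT group held 182 cells, and Socs3 was nearly level across the groups below it.

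**Figure D5:**
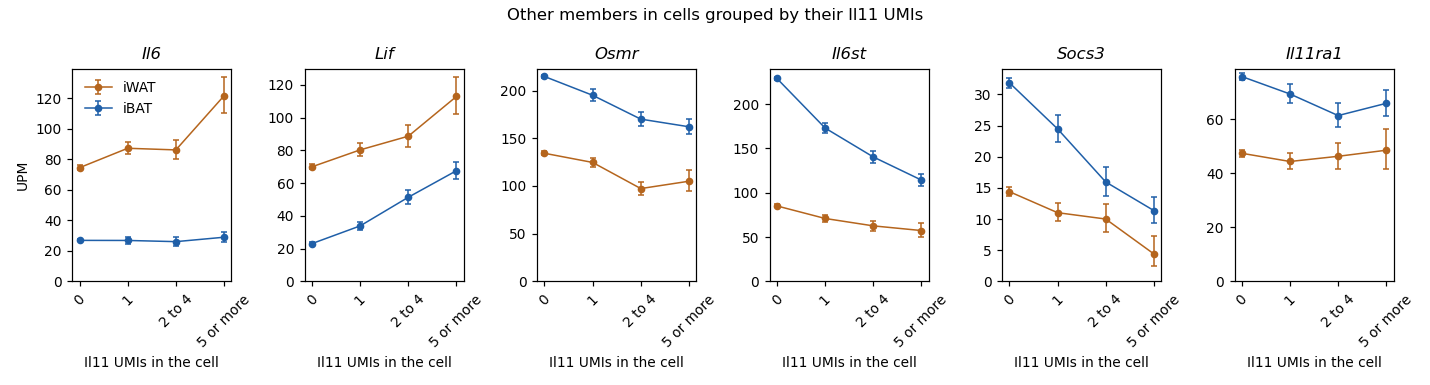
UPM of 6 members in stromal cells thinned to 10000 UMIs, grouped by Il11 UMIs in the cell, with exact 95% counting intervals. Lif is higher, and Osmr, Il6st and Socs3 are lower, in the cells with 5 or more Il11 UMIs in both libraries.

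The target gene lists were summed in cells with and without a UMI of each gene. No share of all genes higher in the same cells is given, so the counts of genes below are descriptions and not results about the lists. Cells with Lif had a summed level of 10 NF-kB target genes 1.32 times that of cells without in iWAT and 1.43 times in iBAT, with 9 of the 10 genes higher in each library. For Il6 the ratios were 1.26 and 1.01, with 10 and 6 genes higher, and for Il11 1.13 and 1.29, with 4 and 6 higher. Over 12345 genes with at least 50 UMIs in the Lif-positive cells of each library, the median log2 ratio was -0.02 in both. Cells with Socs3 had all 10 immediate-early genes higher in both libraries, and their summed level was 1.23 and 1.24 times as high. Cells with Il11 had a lower summed immediate-early level, at 0.861 and 0.860 times. Of 12 STAT3 target genes, 10 in iWAT and 9 in iBAT were higher in cells with Socs3, with median ratios of 1.22 and 1.17. Their summed level was 0.978 and 1.01 times that of cells without Socs3.

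Stromal cells were also grouped by the genes of a cell state list. The list was chosen with earlier results of these data known, so the differences are descriptions only. Grem1 had a UMI in 52.7% of iWAT and 81.6% of iBAT cells, so it does not set a small group apart. Il11 was higher in cells with a UMI of Grem1, a BMP antagonist, at 63.1 against 36.4 UPM in iWAT and 83.1 against 30.9 in iBAT. Il6 was higher in iBAT cells with Fabp4, an adipocyte fatty acid carrier, at 34.7 against 22.3. Socs3 was higher in cells with Gdf10, at 20.1 against 12.9 in iWAT and 42.0 against 28.1 in iBAT. This was shared by Il6st, at 125.3 against 77.6 in iWAT and 367.7 against 196.2 in iBAT. Il11ra1, Lifr, Osmr, Il6 and Ctf1 were also higher with Gdf10 in both libraries. Il6ra and Lif were lower in both, and Il11 was higher in iWAT and lower in iBAT. Lif was lower in iWAT cells with the proliferation gene Mki67, at 61.0 against 82.4. With Mylpf, a muscle myosin light chain, Il11 was nearly level in both depots, at 49.7 against 50.5 and 73.4 against 73.5.

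For each ligand, genes were ranked by the smaller of the 2 libraries' log2 ratios of mean UMIs in cells with over cells without it. Nearest to Il6 among 12492 genes were Heyl and Hey1, which are Notch target genes, with ratios of 0.97 and 0.81, then Nr4a3, Fgf12 and Gm50288. Nearest to Il11 were Apold1 at 0.99, the chemokine Ccl5, the cadherin Cdh6, carbonic anhydrase Car2 and Igfbp5, an IGF-binding protein. Nearest to Lif were the connexin Gjb2 at 0.95, the homeobox gene Meox1, 4930471E19Rik, the bradykinin receptor Bdkrb2 and the chemokine Cxcl3. Il11 ranked 9 and Il6 ranked 30 of 12345 genes in the list of Lif. In the other direction Lif ranked 54 in the list of Il6 and 178 of 12060 in that of Il11, whereas Il11 ranked 2095 in the list of Il6 and Il6 ranked 2674 in that of Il11.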

How the data were processed

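Raw UMI counts per gene and cell were deposited by the authors as 1 matrix per depot, and the submitters' processing notes name Seurat 5.0.0 and the mm39 build; the aligner and the strand setting are not given in the sources used here. A cell was kept with over 200 genes detected, under 7500, and mitochondrial UMIs under 30%. A class needed at least 3 of its markers with 2 UMIs or more each, stromal cells at least 1 Pdgfra UMI, and classes under 50 cells were not described. The members and gene lists were chosen with earlier results of these data known. Named genes were the 10 members, genes of the lists and the 5 genes most like each of Il6, Il11 and Lif, with at least 50 UMIs in the positive cells of each library. Intervals were exact Poisson, binomial or conditional intervals at 95%, with Woolf intervals for odds ratios, and cover counting error only. Doublets were scored with Scrublet in scanpy 1.11.5 and kept in the main values. Python 3.11.15, numpy 2.4.6, scipy 1.17.1 and pandas 2.3.3 were used, and the fold and odds ratio steps were tested on simulated data. Gene positions were taken from GENCODE M39 on GRCm39, and promoter letters from RefSeq on GRCm38.p6 without conversion between builds. Alternatives changed the cell filter, the gates, the level filter, the fold, the thinning depth and the UMIs needed for detection. Some genes of the pathway lists are not reported here.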

Additional observations from a re-analysis of the deposited data

How the results depend on the processing

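The count of members higher in iBAT was 1 with at least 3 Pdgfra UMIs, 1 with a filter of at least 50 UPM and 0 at 4-fold, and the count higher in iWAT was 0 at 4-fold. The count higher in iWAT epithelial-like cells was 1 with markers at 1 UMI. Relative to stromal cells, Il6 in iBAT endothelial-like cells was 1.03 with markers at 1 UMI, and in adipogenic-like cells 0.188 when cells were thinned before gating, against 1.34 otherwise. Without thinning, the iWAT odds ratios were 1.45 for Il6 with Il11, 1.60 for Il6 with Lif and 1.44 for Il11 with Lif. With at least 2 UMIs of each they were 1.35, 1.55 and 1.41 in iWAT and 1.02, 1.65 and 3.05 in iBAT, so Il6 with Il11 in iBAT moved across 1. Thinned to 5000 UMIs, Il6 with Lif was 1.41 and Il11 with Lif 2.32 in iBAT. In iWAT cells without Mki67 and Top2a, Il6 with Lif was 1.26. The cause was not tested. Among the counts and odds ratios, 18 further values of the depot counts, 15 of the class counts, 42 of the odds ratios and 6 of the list counts stayed near the main ones. Values of single members moved more often: 31 of the depot ratios moved beyond their counting interval and 49 did not, and 98 of the class ratios moved, 2 changed direction and 220 did neither. Scrublet's own threshold called 2 iWAT and 1120 iBAT cells, so the 8% of cells with the highest scores were left out instead, a choice made after seeing the data, as were the depth band and the Mki67 and Top2a restriction. No paired analysis was possible because each depot has 1 library and no test was run.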
